A study of Mus musculus with 36 samples.

Results

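The *Slc16* genes described here encode monocarboxylate transporters, and *Bsg* and *Emb* encode the glycoproteins that bring several of those transporters to the cell surface. The genes were chosen by symbol: *Slc16a1* (*Mct1*), *Slc16a3* (*Mct4*), *Slc16a6* (*Mct7*), *Slc16a7* (*Mct2*), *Slc16a10* (*Mct10*), *Slc16a13* (*Mct13*), *Bsg* (basigin) and *Emb* (embigin). They are 8 of the 54347 genes in a table of RNA-sequencing counts from primary mouse cells. The cells were adipocytes differentiated from the stromal vascular fraction of inguinal white fat that was pooled from several mice, macrophages grown from bone marrow, myotubes formed from hindlimb myoblasts, and hepatocytes from perfused liver. The labels give the strain of every sample as C57Bl/6, and the study's methods give male C57BL/6NHsd mice for the hepatocytes and male C57Bl/6 mice for the other cells. Each cell type was kept for 6 h with PBS (control), with 5 mM (R)-β-hydroxybutyrate (βOHB) or with 5 mM butyrate, both given as sodium salts, in 3 replicates per group, which makes 12 groups and 36 libraries. Adipocytes and macrophages were treated in the same medium, and myotubes and hepatocytes each in another. Cell type cannot be told apart from isolation and culture in any comparison between cell types, from the medium in any but that of adipocytes with macrophages, or from the substrain in those with hepatocytes. The study's methods also state that some primary cells came from Munich, from C57BL/6N mice, without naming which. The site may therefore differ between cell types too. The mice had no genetic change, and their age is not given in the sources used here. Nothing states that replicates came from separate animals, so p-values measure the spread between these libraries, which may be technical.

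Monocarboxylate transporters carry lactate, pyruvate, short-chain fatty acids and ketone bodies together with a proton, in the direction set by the gradients of both. Mct1 is the widespread carrier, Mct2 has the highest affinity and Mct4 is the low-affinity carrier through which glycolytic cells release lactate. βOHB and butyrate are themselves cargo: they share a carbon chain of the same length and differ by the hydroxyl group that βOHB carries on the third carbon. Mct1 and Mct4 need basigin to reach the plasma membrane, whereas Mct2 pairs with embigin. Mct7 has been linked to the export of ketone bodies from liver cells, Mct10 carries aromatic amino acids and thyroid hormones without a proton, and Mct13 is a less studied member of the family.

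The genes are spread over 4 chromosomes of the GRCm38 assembly (GENCODE M21 annotation). *Slc16a1* lies at chr3:104638668-104658462 on the plus strand, *Slc16a3* at chr11:120948480-120960868 (plus), *Slc16a6* at chr11:109450855-109473598 (minus) and *Slc16a13* at chr11:70216789-70221064 (minus). *Slc16a7* lies at chr10:125219270-125389465 (minus), *Slc16a10* at chr10:40033532-40142258 (minus), *Bsg* at chr10:79704491-79711969 (plus) and *Emb* at chr13:117208536-117274415 (plus). The exons of *Slc16a6* share 1052 bases with *Amz2* on the opposite strand, and nothing states that reads were counted by strand, so reads from that stretch cannot be assigned to either gene with certainty. Counts were estimated at the transcript level and summed, which can divide reads between near-identical stretches of related genes.

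*Slc16a1*, *Slc16a3*, *Slc16a10* and *Emb* are the 4 genes with an entry in the RefSeq promoter table (GRCm38.p6), and the first 3 of them were called higher in myotubes given butyrate. *Emb* was called there too, but its groups overlapped and the call rested on single libraries, as described below. The 250 bases before each RefSeq start are printed 5′ to 3′ on the strand of the gene, at chr3:104638414-104638663 (plus), chr11:120948817-120949066 (plus), chr10:40142255-40142504 (minus) and chr13:117220323-117220572 (plus), in that order. Capitals mark matches on either strand to GGGCGG (the GC box), CCAAT (the CCAAT box), CACGTG (the E-box), ACGTG (the core of hypoxia response elements, which the E-box contains) and TATAAA (the TATA box).
Slc16a1: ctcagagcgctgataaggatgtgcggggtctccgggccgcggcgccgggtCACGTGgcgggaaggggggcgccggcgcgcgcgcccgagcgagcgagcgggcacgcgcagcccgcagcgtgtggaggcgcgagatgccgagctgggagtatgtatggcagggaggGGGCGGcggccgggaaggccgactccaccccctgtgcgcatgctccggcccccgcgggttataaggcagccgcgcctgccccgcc
Slc16a3: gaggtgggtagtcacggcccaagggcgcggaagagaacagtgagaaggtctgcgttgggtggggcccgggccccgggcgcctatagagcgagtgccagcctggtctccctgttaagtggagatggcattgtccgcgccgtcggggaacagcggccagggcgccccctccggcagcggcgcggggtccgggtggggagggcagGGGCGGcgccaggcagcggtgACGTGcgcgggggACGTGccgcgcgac
Slc16a10: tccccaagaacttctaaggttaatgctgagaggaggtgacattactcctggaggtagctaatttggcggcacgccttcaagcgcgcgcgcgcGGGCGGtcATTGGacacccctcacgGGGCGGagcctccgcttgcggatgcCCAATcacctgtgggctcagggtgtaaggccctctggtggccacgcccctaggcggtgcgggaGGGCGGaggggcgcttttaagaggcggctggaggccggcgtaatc
Emb: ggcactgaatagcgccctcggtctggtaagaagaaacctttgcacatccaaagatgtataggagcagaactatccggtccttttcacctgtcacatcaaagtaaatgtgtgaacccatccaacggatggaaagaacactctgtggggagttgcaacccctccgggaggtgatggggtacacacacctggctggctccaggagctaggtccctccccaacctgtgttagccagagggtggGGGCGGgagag

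Each of the 4 windows held the GC box, which 32.7% of the 32851 windows in the table hold; *Slc16a10* had 3 matches and the others 1 each. The *Slc16a1* window had the only E-box among them (6.02% of all windows), beginning 200 bases before the start. ACGTG (16.6% of all windows) had 2 matches in the *Slc16a1* window, both inside that E-box and beginning 200 and 199 bases before the start. The *Slc16a3* window also had 2 matches to ACGTG, beginning 27 and 14 bases before the start. *Slc16a10* had 2 matches to the CCAAT box (33.8% of all windows), and none of the 4 windows held TATAAA (12.4% of all windows). CG pairs numbered 37 before *Slc16a1*, 29 before *Slc16a3*, 21 before *Slc16a10* and 6 before *Emb*; 97.8%, 93.2%, 83.7% and 49.6% of all windows, respectively, held fewer. The *Emb* and *Slc16a3* windows lie inside the genes as GENCODE M21 places them, downstream of the outermost annotated start, so their letters describe the RefSeq start only. Matches are a description of letters and not of binding.

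The libraries summed to 18366289 to 23221473 estimated counts. Levels are given as counts per 1000000 counts of the library (CPM), on library sizes scaled by the trimmed mean of M-values, and a gene was called different where edgeR's quasi-likelihood test gave an adjusted p below 0.05 after Benjamini-Hochberg adjustment over the 15340 genes tested. Summed markers of each labelled cell type were highest in that cell type: 13230 to 18090 CPM for 6 adipocyte markers, 12140 to 19190 for 10 macrophage markers, 13120 to 28470 for 6 myotube markers and 34950 to 44430 for 6 hepatocyte markers. Markers of other cells were present as well. Fibroblast markers (6 genes) summed to 7379 to 12670 CPM in the adipocyte libraries, highest in the third βOHB replicate, to 1698 to 2765 in macrophages and to 1632 to 2428 in myotubes. Adipocyte markers summed to 1106 to 1508 CPM in macrophages. Macrophage markers summed to 413.3 to 521.4 CPM in adipocytes and 85.8 to 123.5 in hepatocytes. In myotubes macrophage and hepatocyte markers moved with treatment and are given beside the results that they touch. In bulk RNA, fewer cells of a type and less RNA per cell cannot be told apart. All 8 genes passed the filter on low values.

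**Figure D1:**
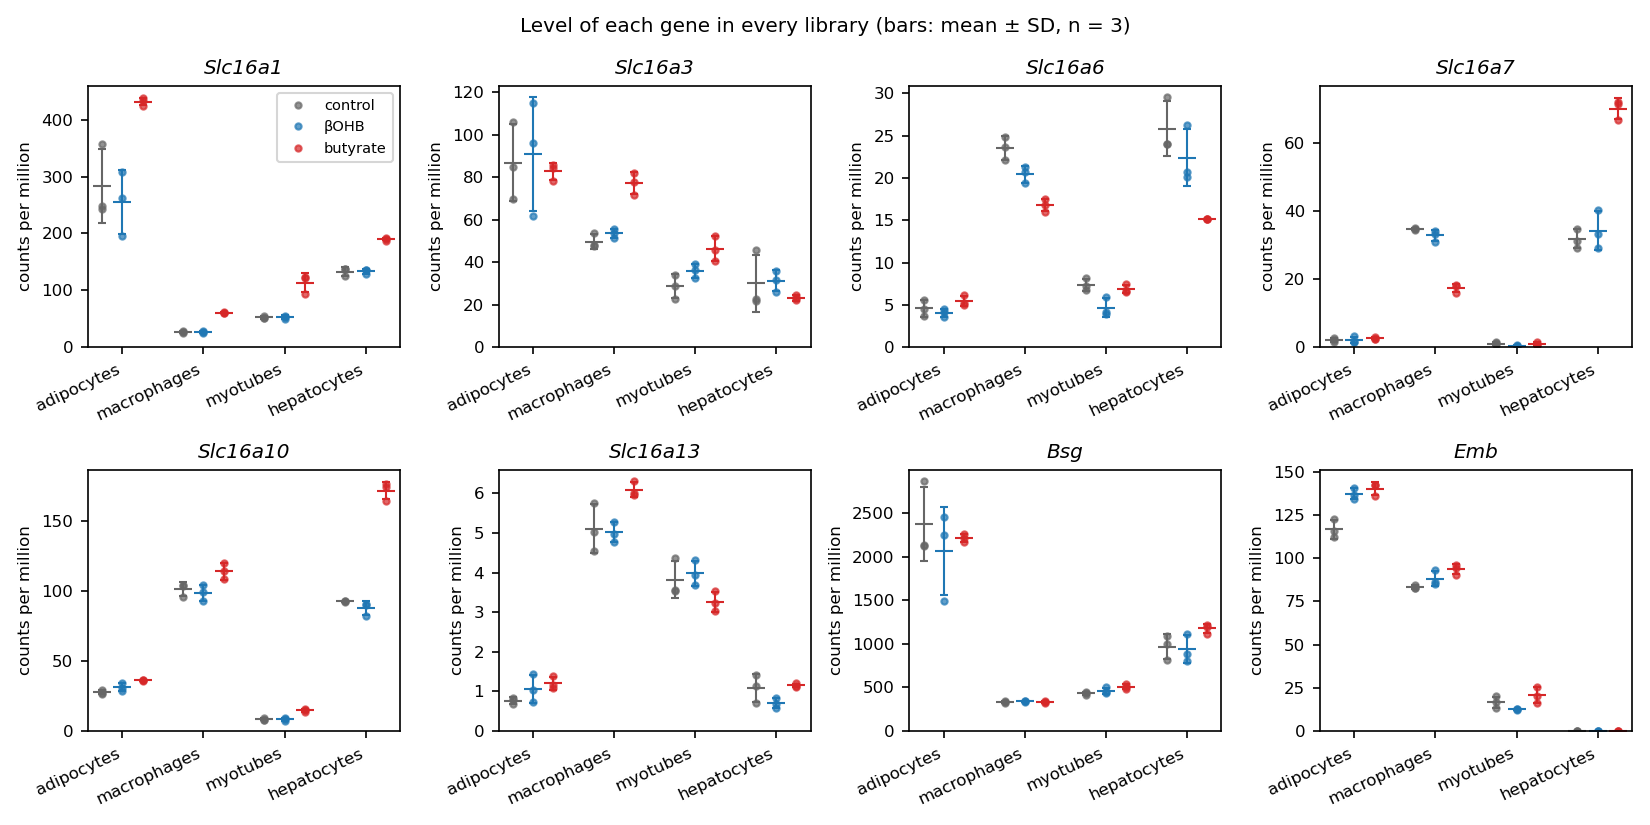
Level of each of the 8 genes (CPM, linear axis from 0) in adipocytes, macrophages, myotubes and hepatocytes, with 1 point per library and bars for the mean ± SD of 3 libraries; grey is control, blue βOHB and red butyrate. The red points stand above the grey ones in all 4 cell types for *Slc16a1* and *Slc16a10*, while for *Slc16a7* they lie below in macrophages and above in hepatocytes.

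The first question was how much RNA of each gene the cells held without treatment. Between control cells 8 of the 8 genes were called for adipocytes against macrophages (77.5% of all tested genes), adipocytes against myotubes (78.2%) and macrophages against myotubes (82.2%), 7 for adipocytes against hepatocytes (81.1%) and myotubes against hepatocytes (86.6%), and 5 for macrophages against hepatocytes (82.1%). *Slc16a1*, the gene for the widespread carrier, was read at 358, 243 and 248 CPM in control adipocytes, 125, 137 and 137 CPM in hepatocytes, 50.4, 55.0 and 52.0 CPM in myotubes and 28.6, 25.4 and 26.9 CPM in macrophages. No library of one cell type reached into the range of the next. Each step in this order was called: adipocytes were 2.13-fold above hepatocytes (adjusted p = 1.18e-09), hepatocytes 2.53-fold above myotubes (adjusted p = 2.14e-11) and myotubes 1.95-fold above macrophages (adjusted p = 6.64e-08).

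*Slc16a7*, the high-affinity carrier, had a different order. It was at 35.1, 34.8 and 34.5 CPM in control macrophages and 31.4, 34.9 and 29.3 CPM in hepatocytes, against 1.52, 2.80 and 1.98 CPM in adipocytes and 1.42, 1.10 and 0.572 CPM in myotubes. The 2 upper cell types overlapped and were not called different (log2 difference 0.13, 95% interval −0.16 to 0.42, adjusted p = 0.407). On library totals without further scaling, where the median of all genes also stood 0.25 higher in macrophages, the difference was 0.38 (adjusted p = 0.0166). Hepatocytes exceeded adipocytes 15.1-fold (adjusted p = 5.89e-18), and adipocytes exceeded myotubes 2.04-fold (adjusted p = 0.00365). *Slc16a6* was shared out in a similar way, at 24.0, 24.0 and 29.6 CPM in control hepatocytes, 24.8, 22.1 and 23.7 CPM in macrophages, 8.16, 7.27 and 6.73 CPM in myotubes and 4.50, 5.60 and 3.63 CPM in adipocytes. Hepatocytes and macrophages again overlapped (log2 difference −0.13 for macrophages against hepatocytes, 95% interval −0.37 to 0.10, adjusted p = 0.282), macrophages were 3.19-fold above myotubes (adjusted p = 1.81e-13) and myotubes 1.61-fold above adipocytes (adjusted p = 9.29e-05).

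*Slc16a3*, the lactate exporter, was highest in control adipocytes at 106, 84.8 and 69.8 CPM, followed by macrophages at 47.4, 53.9 and 47.9 CPM. Hepatocytes gave 21.6, 45.5 and 22.8 CPM and myotubes 22.8, 34.1 and 29.0 CPM. Adipocytes were 1.75-fold above macrophages (adjusted p = 0.000392) and macrophages 1.66-fold above hepatocytes (adjusted p = 0.0019), whereas hepatocytes and myotubes overlapped and were not called different (log2 difference −0.07 for myotubes against hepatocytes, 95% interval −0.50 to 0.37, adjusted p = 0.773). The hepatocyte spread came from the second control replicate, whose value lay near those of macrophages.

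*Slc16a10*, the aromatic amino acid carrier, was at 95.8, 105 and 104 CPM in control macrophages, 93.1, 92.5 and 92.4 CPM in hepatocytes, 26.8, 29.6 and 27.2 CPM in adipocytes and 9.54, 8.06 and 8.09 CPM in myotubes. Macrophages and hepatocytes were not called different (log2 difference 0.13, 95% interval −0.01 to 0.27, adjusted p = 0.0856), a difference that passed the threshold under 6 other settings. Hepatocytes exceeded adipocytes 3.33-fold (adjusted p = 1.23e-19) and adipocytes exceeded myotubes 3.26-fold (adjusted p = 1.1e-17). *Slc16a13* was low throughout, at 5.76, 4.54 and 5.02 CPM in control macrophages, 3.53, 4.36 and 3.56 CPM in myotubes, 1.13, 1.41 and 0.710 CPM in hepatocytes and 0.780, 0.689 and 0.844 CPM in adipocytes. The step from macrophages to myotubes (1.34-fold, adjusted p = 0.00834) did not pass without the first macrophage replicate (adjusted p = 0.0656). Myotubes were 3.52-fold above hepatocytes (adjusted p = 2.21e-10), and adipocytes did not differ from hepatocytes past the threshold (log2 difference −0.48, 95% interval −0.96 to −0.003, adjusted p = 0.0998) except without the third hepatocyte replicate, where the difference was −0.72 with adjusted p = 0.0231.

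The chaperones had orders of their own. *Bsg* was at 2864, 2132 and 2118 CPM in control adipocytes, 997, 1093 and 815 CPM in hepatocytes, 447, 442 and 413 CPM in myotubes and 333, 343 and 323 CPM in macrophages. That is the order of *Slc16a1*, the carrier that basigin serves, and each step was called: 2.45-fold from hepatocytes to adipocytes (adjusted p = 3.56e-10), 2.23-fold from myotubes to hepatocytes (adjusted p = 2.87e-09) and 1.30-fold from macrophages to myotubes (adjusted p = 0.00987). *Emb* was at 116, 123 and 112 CPM in control adipocytes, 82.7, 82.6 and 84.6 CPM in macrophages and 20.0, 16.8 and 13.6 CPM in myotubes. Adipocytes were 1.40-fold above macrophages (adjusted p = 2.78e-05) and macrophages 4.96-fold above myotubes (adjusted p = 7.59e-19). Control hepatocytes held 4, 1 and 0 counts of *Emb*, or 0.251, 0.0615 and 0 CPM, and no fold is given against so few counts. *Slc16a7*, the partner of embigin, was among its higher levels in those same hepatocytes.

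Divided by transcript length, *Bsg* was the highest of the 8 genes in all 4 control cell types, at 1896 CPM per kb of its median coding transcript in adipocytes, 774 in hepatocytes, 347 in myotubes and 267 in macrophages. It kept the first rank when the longest transcript or all exons gave the length. The highest transporter per kb was *Slc16a1* in adipocytes (63.9 CPM per kb) under every length. In macrophages it was *Slc16a10* (43.6 CPM per kb on the median length, 13.8 on all exons). In myotubes and hepatocytes the leading transporter changed with the length used, and the rank of *Slc16a13* was uncertain since its median coding transcript is a fragment.

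**Figure D2:**
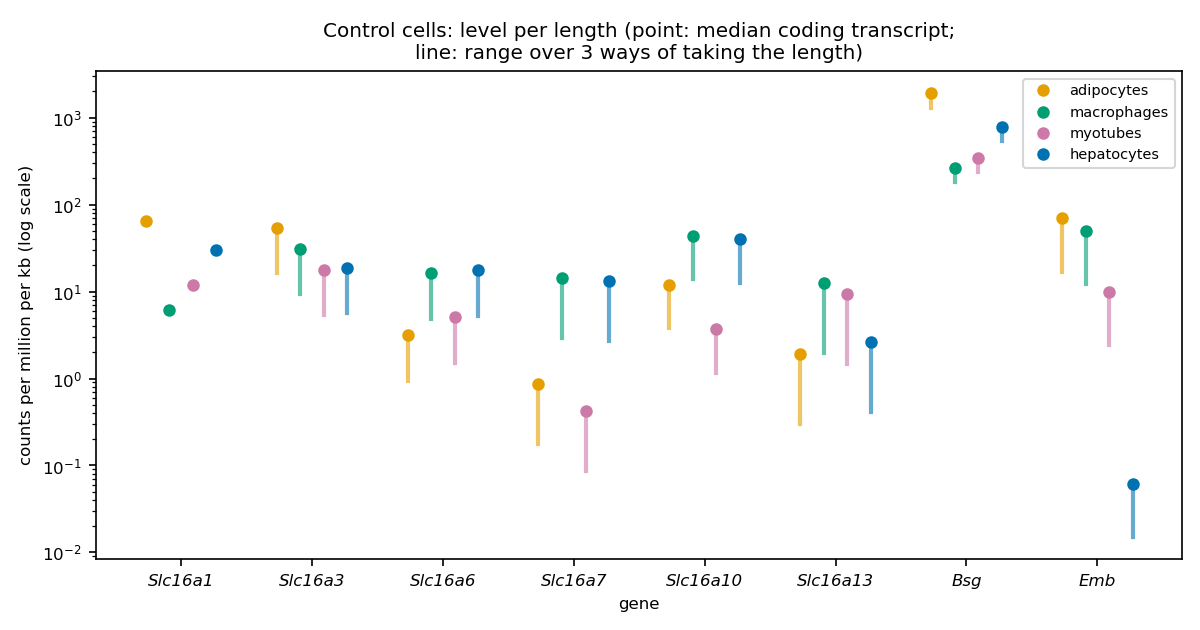
Level of each gene in control cells per kb of transcript (CPM per kb, log axis), with 1 colour per cell type; the point uses the median coding transcript and the line spans 3 ways of taking the length. *Bsg* stands above every other gene in each cell type, and *Emb* in hepatocytes stands at 0.0617 CPM per kb or less.

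Of the 8 genes, 4 to 5 were called between butyrate and control in each cell type, where the share of all tested genes called was 61.0% in adipocytes, 65.0% in macrophages, 66.5% in myotubes and 63.5% in hepatocytes. The counts therefore do not set these genes apart. Butyrate is an inhibitor of histone deacetylases, and changes across most of the transcriptome form the background against which single genes are read. *Slc16a1* and *Slc16a10* were higher with butyrate in all 4 cell types, and *Bsg* was called in none, although some other settings called it in myotubes and hepatocytes. The butyrate effect was called different between cell types for 6 of the 8 genes, against 74.5% of all tested genes. Other markers moved with butyrate as well: in macrophages their own 10 markers summed to 12140 to 12800 CPM against 19030 to 19190 in control and 4 cell division markers to 558 to 657 against 1395 to 1429, and in hepatocytes 5 endothelial markers summed to 20.2 to 23.6 CPM against 66.4 to 74.2. In myotubes their own 6 markers summed to 13120 to 17810 CPM against 20990 to 25840 in control and the cell division markers to 15.9 to 21.1 against 33.8 to 73.5. In adipocytes their own 6 markers summed to 13230 to 14620 CPM against 16120 to 17440 and the endothelial markers to 122 to 144 against 188 to 215. The myotube libraries also differed in markers of other cells: 6 of 6 hepatocyte markers were called higher with butyrate, at sums of 32.3 to 573 CPM against 0 to 0.176, and 10 of 10 macrophage markers lower, at 23.0 to 104 against 157 to 418. Sums rose elsewhere too, those of the myotube markers in macrophages to 19.8 to 56.4 CPM from 6.32 to 13.2 (6 of 6 called higher), and those of the cell division markers in hepatocytes to 17.5 to 19.5 CPM from 7.50 to 12.5 (2 of 4 called higher). In hepatocytes myotube markers rose to 43.6 to 48.0 CPM from 26.0 to 26.6, and adipocyte markers to 63.15 to 68.57 from 48.58 to 50.93. Hepatocyte markers rose there to 42220 to 44430 CPM from 38250 to 40190. Fibroblast markers fell there to 18.1 to 19.9 CPM from 23 to 28.7, and in macrophages to 1698 to 2381 from 2462 to 2642. Adipocyte markers fell in macrophages to 1106 to 1140 CPM from 1371 to 1455. Macrophage markers fell in adipocytes to 413.3 to 436.5 CPM from 438.1 to 521.4. None of these pairs of ranges overlapped, and the part of other cells in the results, the rises of *Slc16a1*, *Slc16a3* and *Slc16a10* in myotubes among them, was not tested.

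*Slc16a1* was read at 433, 438 and 425 CPM in adipocytes given butyrate, above all control libraries (log2 fold change 0.61 ± 0.12 SE, adjusted p = 4.02e-05). In macrophages it was at 61.2, 60.7 and 59.7 CPM, a 2.24-fold rise over control (log2 1.17 ± 0.13, adjusted p = 3.22e-09). In myotubes it was at 122, 123 and 94.2 CPM, a 2.16-fold rise (log2 1.11 ± 0.12, adjusted p = 3.86e-09). Hepatocytes, at 192, 191 and 188 CPM, rose 1.43-fold (log2 0.52 ± 0.12, adjusted p = 0.000374). The groups did not overlap in any cell type. The size of the rise differed between cell types (adjusted p = 0.00139, edgeR's joint test of the butyrate effect over 4 cell types), and in macrophages and myotubes, the cells with the lowest control levels, it was over 2-fold.

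*Slc16a10* rose in hepatocytes from 93.1, 92.5 and 92.4 CPM in control to 176, 174 and 165 CPM with butyrate (log2 0.89 ± 0.07, adjusted p = 1.34e-12). In myotubes it reached 15.4, 15.6 and 13.6 CPM (log2 0.80 ± 0.09, adjusted p = 5.41e-09), in adipocytes 36.2, 36.1 and 36.5 CPM (log2 0.38 ± 0.08, adjusted p = 5.63e-05) and in macrophages 120, 114 and 108 CPM (log2 0.17 ± 0.07, adjusted p = 0.0273). No groups overlapped. The macrophage call did not pass without the first control replicate (adjusted p = 0.134), without the first butyrate replicate (0.0767) or without a filter (0.111), and the effect differed between cell types (adjusted p = 4.46e-07).

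*Slc16a7* went opposite ways. In macrophages given butyrate it was at 18.0, 18.2 and 16.1 CPM, or 2.00-fold lower than control (log2 −0.999 ± 0.145, adjusted p = 4.86e-07). In hepatocytes it was at 71.6, 72.3 and 66.8 CPM, or 2.21-fold higher (log2 1.14 ± 0.14, adjusted p = 2.37e-08). These are the cells in which control levels of *Slc16a7* were alike, and the libraries of each pair of groups stood apart. In adipocytes it was at 2.91, 2.47 and 2.51 CPM (log2 0.32, 95% interval −0.21 to 0.85, adjusted p = 0.297) and in myotubes at 0.610, 1.50 and 0.626 CPM (log2 −0.16, 95% interval −0.91 to 0.59, adjusted p = 0.722). The effect differed between cell types with the smallest p of the 8 genes (adjusted p = 3.04e-09).

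*Slc16a6* fell with butyrate in hepatocytes to 15.2, 15.1 and 15.2 CPM (log2 −0.77 ± 0.12, adjusted p = 1.66e-06) and in macrophages to 17.5, 16.8 and 16.0 CPM (log2 −0.49 ± 0.12, adjusted p = 0.000474), the 2 cell types with the higher control level. In both the groups did not overlap. On library totals without further scaling, where the median of all tested genes stood 0.20 higher in macrophages, the macrophage difference was −0.26 with adjusted p = 0.0594. *Amz2*, with which it shares exon bases, moved differently: it was at 48.9 ± 1.9 CPM in macrophages given butyrate against 33.3 ± 0.4 in control (log2 0.56 ± 0.06, adjusted p = 9.92e-10) and was not called in hepatocytes (log2 0.11 ± 0.06, adjusted p = 0.102). In adipocytes (4.98, 5.19 and 6.15 CPM) and myotubes (7.40, 6.55 and 6.62 CPM) *Slc16a6* overlapped control and was not called (log2 0.25, 95% interval −0.06 to 0.56, adjusted p = 0.159; log2 −0.11, 95% interval −0.39 to 0.18, adjusted p = 0.516). Without the second control replicate the adipocyte difference was 0.42 with adjusted p = 0.0294. The effect differed between cell types (adjusted p = 0.00015).

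*Slc16a3* rose in macrophages to 71.5, 77.9 and 81.9 CPM (log2 0.63 ± 0.19, adjusted p = 0.00504) and in myotubes to 45.7, 52.4 and 40.7 CPM (log2 0.70 ± 0.20, adjusted p = 0.00346). Neither pair of groups overlapped. In adipocytes the butyrate libraries (84.4, 78.1 and 85.8 CPM) lay inside the control range (log2 −0.07, 95% interval −0.46 to 0.32, adjusted p = 0.782). In hepatocytes they were at 22.0, 24.7 and 23.1 CPM (log2 −0.36, 95% interval −0.81 to 0.08, adjusted p = 0.152), overlapping control. That difference passed without a filter (adjusted p = 0.00141) and without the first control replicate, where it was −0.55 (adjusted p = 0.04). The effect differed between cell types (adjusted p = 0.00294).

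*Slc16a13* was called in adipocytes, where it was at 1.08, 1.15 and 1.39 CPM with butyrate (log2 0.65 ± 0.22, adjusted p = 0.0171). That call rested on low counts and did not pass without the second control replicate (adjusted p = 0.0637), without the third butyrate replicate (0.0929), without a filter (0.0835) or on the adipocyte libraries alone (0.0534). Its values were 5.96, 6.00 and 6.30 CPM in macrophages (log2 0.25, 95% interval −0.03 to 0.53, adjusted p = 0.112), 3.54, 3.03 and 3.22 CPM in myotubes (adjusted p = 0.183) and 1.11, 1.14 and 1.201 CPM in hepatocytes (adjusted p = 0.8). The macrophage groups did not overlap, and that difference passed with limma-voom (0.0499), on the macrophage libraries alone (0.0277) and on library totals (0.00286). The joint test of the effect between cell types gave adjusted p = 0.0226 and did not pass with limma-voom (0.0556), with DESeq2 (0.0518), without a filter (0.0936), or without the second control or the third butyrate replicate of adipocytes (0.051 and 0.0586) or the second control or second butyrate replicate of myotubes (0.074 and 0.0558).

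Of the chaperones, *Emb* was at 142, 142 and 136 CPM in adipocytes given butyrate (log2 0.26 ± 0.09, adjusted p = 0.0161) and at 16.5, 20.6 and 25.7 CPM in myotubes (log2 0.31 ± 0.11, adjusted p = 0.0148). The adipocyte groups stood apart, and that call did not pass without the third control replicate (adjusted p = 0.0624). The myotube groups overlapped, and that call did not pass without the third butyrate replicate (adjusted p = 0.238), without the third control replicate (adjusted p = 0.16) or on the myotube libraries alone (adjusted p = 0.106). The third butyrate replicate, with the highest *Emb* value, stood apart from the others of its group: its counts differed from theirs by a chi-square per degree of freedom of 33.8 and 38.1, against 7.97 between the other two. It had the highest sums of fibroblast markers (2428 CPM, against 1632 and 1675) and endothelial markers (16.0 CPM, against 9.40 and 8.94) in its group and the lowest sum of myotube markers (13120 CPM, against 17810 and 17280). Their part in the *Emb* value was not tested. Macrophages gave 96.2, 90.3 and 94.4 CPM, above each control library, without passing (log2 0.17, 95% interval −0.03 to 0.36, adjusted p = 0.121), although that difference passed on the macrophage libraries alone (0.000667) and on library totals (0.00127), and hepatocytes 1 count in each library. *Bsg* was at 2256, 2210 and 2163 CPM in adipocytes (log2 −0.10, 95% interval −0.37 to 0.17, adjusted p = 0.533), 334, 325 and 342 CPM in macrophages (log2 0.00, 95% interval −0.27 to 0.27, adjusted p = 1) and 481, 509 and 541 CPM in myotubes (log2 0.23, 95% interval −0.04 to 0.50, adjusted p = 0.123). The myotube difference, whose groups did not overlap, passed on the myotube libraries alone (adjusted p = 0.0123) and on library totals (0.0143). In hepatocytes it was at 1216, 1196 and 1117 CPM, above each control library (log2 0.28, 95% interval 0.01 to 0.55, adjusted p = 0.0658), a difference that passed under 8 other settings, limma-voom (adjusted p = 0.0438) and DESeq2 (0.037) among them. The butyrate effect on *Bsg* and *Emb* was not called different between cell types (adjusted p = 0.178 and 0.612), although *Bsg* passed that test without a filter (0.0231). For *Emb* the test includes hepatocytes, which held 4, 1 and 0 counts in control and 1 in each butyrate library, too few to compare.

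**Figure D3:**
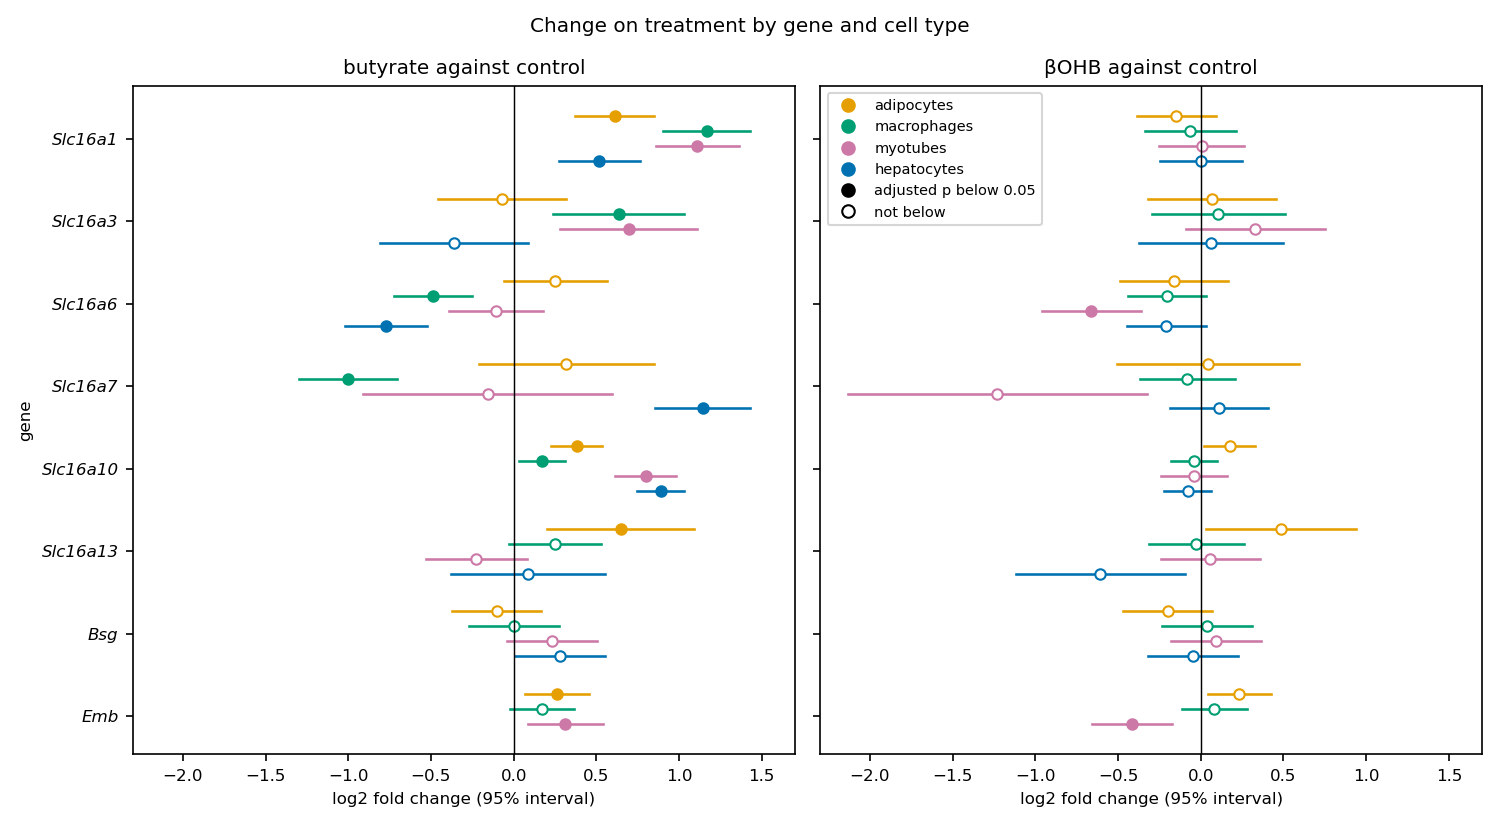
Log2 fold change against control with its 95% interval for each gene and cell type, butyrate on the left and βOHB on the right; filled points passed an adjusted p of 0.05. *Emb* in hepatocytes is left out for its few counts. Filled points stand on both sides of 0 for *Slc16a7* with butyrate (−0.999 in macrophages and 1.14 in hepatocytes), and the only filled points with βOHB are *Slc16a6* and *Emb* in myotubes.

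βOHB, at the same dose and time, left most of these values near control. In adipocytes, macrophages and hepatocytes 0 of the 8 genes were called by edgeR, by limma-voom or by DESeq2, where 0.00652%, 0% and 0.00652% of all tested genes were called by edgeR. At an unadjusted p below 0.05 there were 2 genes in adipocytes (*Slc16a10* and *Emb*), 0 in macrophages and 1 in hepatocytes (*Slc16a13*), against 1097, 358 and 845 of all 15340 tested genes. *Slc16a1* with βOHB was at 307, 262 and 196 CPM in adipocytes (log2 −0.15, 95% interval −0.39 to 0.09), 26.0, 24.0 and 27.5 CPM in macrophages (log2 −0.06, 95% interval −0.34 to 0.21) and 137, 135 and 128 CPM in hepatocytes (log2 0.00, 95% interval −0.24 to 0.25). The third βOHB replicate of adipocytes was the lowest adipocyte library for *Slc16a1*, *Slc16a3* (62.0 CPM) and *Bsg* (1490 CPM), and had the highest sums of fibroblast markers and of 4 cell division markers (151 CPM, against 44.2 to 93.0 in the other adipocyte libraries). The part of those cells in the values was not tested.

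In hepatocytes, the cells that make ketone bodies, *Slc16a7* was at 40.4, 33.3 and 29.3 CPM with βOHB (log2 0.11, 95% interval −0.18 to 0.40) and *Slc16a6* at 20.7, 20.2 and 26.3 CPM (log2 −0.21, 95% interval −0.45 to 0.03). Both overlapped control. *Emb* in adipocytes gave 137, 134 and 141 CPM, above the control libraries, with adjusted p = 0.629 (log2 0.23, 95% interval 0.04 to 0.42).

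In myotubes 2 of the 8 genes were called with βOHB, both lower, against 2.91% of all tested genes in either direction and 2.56% lower. *Slc16a6* was at 3.86, 4.18 and 5.94 CPM against 8.16, 7.27 and 6.73 CPM in control, so that every βOHB library lay under every control library (log2 −0.66 ± 0.15, adjusted p = 0.00674). *Emb* was at 12.3, 12.9 and 12.6 CPM against 20.0, 16.8 and 13.6 CPM, also without overlap (log2 −0.41 ± 0.12, adjusted p = 0.0498). *Slc16a7* was at 0.597, 0.266 and 0.444 CPM against 1.42, 1.10 and 0.572 CPM and was not called (log2 −1.23, 95% interval −2.13 to −0.33, adjusted p = 0.163), although it was called by DESeq2 (adjusted p = 0.00952), without a filter (0.00178) and without the third control replicate (0.049). *Amz2* was not called (log2 0.11 ± 0.06, adjusted p = 0.414). *Slc16a1* was at 53.7, 55.2 and 49.1 CPM (log2 0.01, 95% interval −0.25 to 0.26, adjusted p = 1), and *Slc16a3* at 39.1, 36.4 and 32.4 CPM (log2 0.33, 95% interval −0.09 to 0.75, adjusted p = 0.511).

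Both calls were lost when some single libraries were left out. The fit on the myotube libraries alone called 0 of 15299 genes (1420 at an unadjusted p below 0.05), these included, and its log2 differences were −0.69 for *Slc16a6* and −0.45 for *Emb*. The *Slc16a6* call did not pass without the first control replicate (0.085), the first βOHB replicate (0.0849) or the second βOHB replicate (0.0737). The *Emb* call did not pass without the first control (0.568), second control (0.118), first βOHB (0.186), second βOHB (0.131) or the third βOHB replicate (0.121), nor with limma-voom (0.106) or with replicate as a block (0.118). The βOHB effect on the 8 genes was called different between cell types for 0 of them by edgeR, with 2 at an unadjusted p below 0.05 (*Slc16a13* and *Emb*). Of all 15340 tested genes 0.978% were called and 1267 had an unadjusted p below 0.05. Limma-voom and DESeq2 each called 1 of the 8, *Emb*. Its test includes hepatocytes, which held only 4, 1 and 0 counts in control and 2, 4 and 4 with βOHB.

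Markers of macrophages, which express *Slc16a6*, *Slc16a7* and *Emb*, moved in the same direction in these libraries. The 10 macrophage markers summed to 418, 343 and 157 CPM in control myotubes, 83.2, 57.1 and 150.0 with βOHB and 23.0, 104 and 37.2 with butyrate, and none of the 10 was at 0 in any group. In control myotubes that is 2.18%, 1.79% and 0.823% of the mean sum in control macrophages. Scaled by those shares, the level in macrophages would amount to 0.514, 0.422 and 0.194 CPM of *Slc16a6* in the control myotube libraries and 0.0909, 0.0624 and 0.164 CPM with βOHB. For *Emb* it would amount to 1.82, 1.49 and 0.686 CPM in control and 0.393, 0.270 and 0.708 CPM with βOHB, and for *Slc16a7* to 0.761, 0.624 and 0.287 CPM in control and 0.146, 0.101 and 0.264 CPM with βOHB. The scaling takes macrophages of muscle to express these genes as bone marrow macrophages do. The cell division markers were also lower in these libraries, at 25.6, 20.5 and 25.6 CPM with βOHB against 73.5, 52.5 and 33.8 in control, as were the endothelial markers, at 3.99, 3.598 and 3.95 CPM against 13.9, 4.40 and 4.75. The adipocyte markers were lower too, at 29.5, 25.0 and 29.8 CPM against 49.3, 43.4 and 32.3. The myotubes' own 6 markers were higher, at 28470, 26260 and 26440 CPM against 20990, 25840 and 24630. The fibroblast markers overlapped control. The part of any of these cells in the result was not tested.

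**Figure D4:**
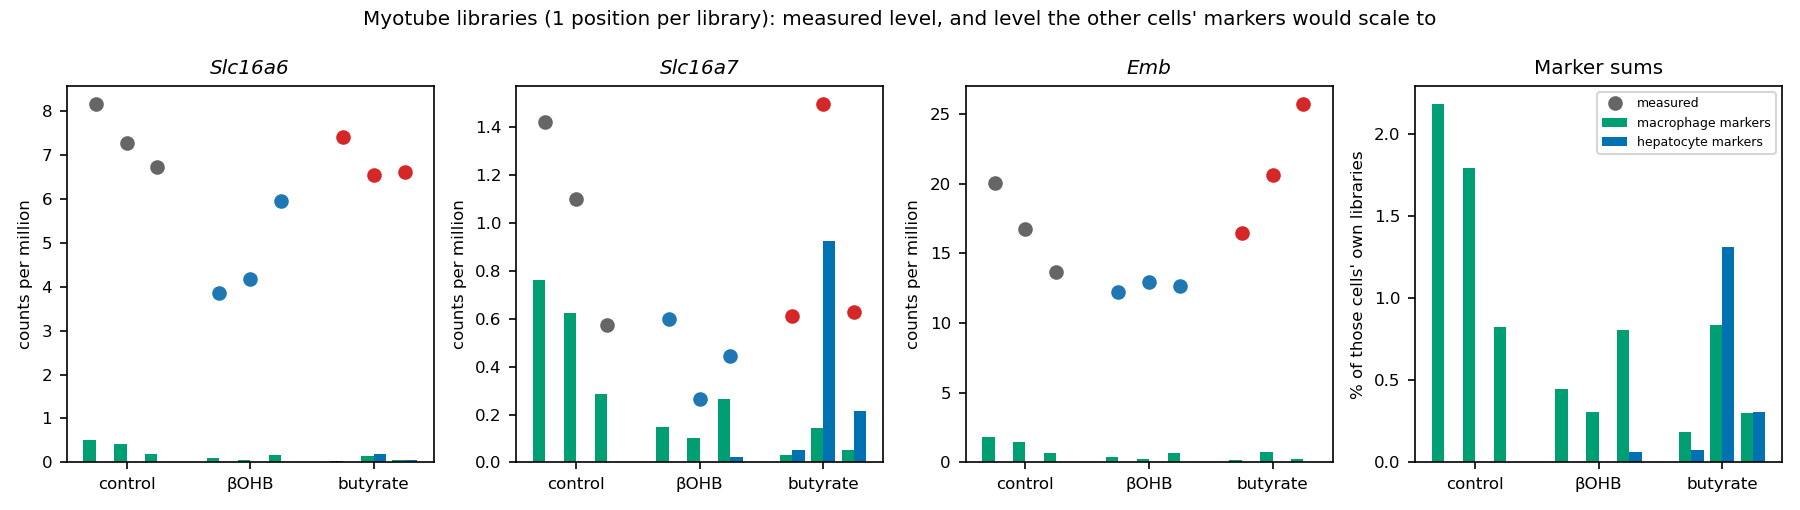
Measured level of *Slc16a6*, *Slc16a7* and *Emb* in each of the 9 myotube libraries (points, CPM; grey control, blue βOHB, red butyrate), beside the level that macrophage (green) or hepatocyte (blue) markers in the same library would scale to (bars); the right panel gives the marker sums as a percentage of those cells' own libraries. The macrophage bar of the first control library stands at 0.514 CPM beside a point at 8.16 for *Slc16a6*, at 0.761 beside 1.42 for *Slc16a7* and at 1.82 beside 20.0 for *Emb*.

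The structural question is how butyrate and βOHB, which differ by a hydroxyl group, compare at the same dose and time. Set directly against each other in 32 comparisons (8 genes in 4 cell types), butyrate gave a called difference in 3 genes in adipocytes, 5 in macrophages, 5 in myotubes and 6 in hepatocytes, where 59.5%, 64.7%, 66.0% and 63.5% of all tested genes were called. These comparisons share the butyrate libraries with those against control. *Slc16a1* was higher with butyrate in each, by log2 0.76 ± 0.12 in adipocytes (adjusted p = 1.7e-06), 1.23 ± 0.13 in macrophages (1.24e-09), 1.10 ± 0.12 in myotubes (4.19e-09) and 0.52 ± 0.12 in hepatocytes (0.000381). *Slc16a10* was higher in each as well, by log2 0.21 ± 0.08 in adipocytes (adjusted p = 0.0182), 0.21 ± 0.07 in macrophages (0.00763), 0.84 ± 0.09 in myotubes (2.16e-09) and 0.97 ± 0.07 in hepatocytes (2.05e-13). Its call in macrophages did not pass without the third βOHB replicate (adjusted p = 0.0555), nor did that in adipocytes without the first or second βOHB replicate (0.128 and 0.0552) or without a filter on low counts (0.136).

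*Slc16a7* was lower with butyrate than with βOHB in macrophages (log2 −0.92 ± 0.14, adjusted p = 2.13e-06) and higher in hepatocytes (log2 1.03 ± 0.14, adjusted p = 1.3e-07). In myotubes it was called higher (log2 1.07 ± 0.45, adjusted p = 0.0359). Without the second butyrate replicate the difference was 0.50 with adjusted p = 0.385, and the call was also lost without the second or the third βOHB replicate (0.144 and 0.069), with limma-voom (0.0905) and on the myotube libraries alone (0.0797). Hepatocyte markers in that library summed to 573 CPM, or 1.31% of their level in hepatocytes given butyrate, against 32.3 and 133 CPM in the other butyrate libraries, 0.138, 0.0444 and 24.8 CPM with βOHB and 0 to 0.176 CPM in control myotubes. That share of the hepatocyte level would amount to 0.923 CPM of *Slc16a7*, of 1.50 CPM measured, and to 2.25 CPM of *Slc16a10*, of 15.6 CPM measured. The part of hepatocyte RNA in the result was not tested.

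*Slc16a6* was lower with butyrate than with βOHB in hepatocytes (log2 −0.56 ± 0.12, adjusted p = 0.000158) and macrophages (log2 −0.28 ± 0.12, adjusted p = 0.0353), and higher in myotubes (log2 0.56 ± 0.15, adjusted p = 0.00148) and adipocytes (log2 0.42 ± 0.16, adjusted p = 0.0235). The macrophage call did not pass on library totals (log2 −0.06, adjusted p = 0.727) or without any of 5 libraries taken singly, and the adipocyte call did not pass without the second βOHB replicate (adjusted p = 0.103), without the third butyrate replicate (adjusted p = 0.124) or with limma-voom (adjusted p = 0.0612). *Emb* was called in myotubes (log2 0.73 ± 0.12, adjusted p = 2.24e-06) and not in adipocytes (log2 0.03, 95% interval −0.16 to 0.22) or macrophages (log2 0.09, 95% interval −0.11 to 0.28), where it passed on the macrophage libraries alone (0.0237) and on library totals (0.00857). *Slc16a3* differed in macrophages (log2 0.53 ± 0.19, adjusted p = 0.0176), a call lost without the first βOHB replicate (adjusted p = 0.0546), and was not called in myotubes (log2 0.37, 95% interval −0.04 to 0.77, adjusted p = 0.108), although it passed there on library totals (0.013), without a filter (0.00066), with replicate as a block (0.0458) and on the myotube libraries alone (0.0248). In hepatocytes *Slc16a3* was not called (log2 −0.43, 95% interval −0.87 to 0.02, adjusted p = 0.088), and passed without a filter (9.99e-05) and with the block (0.0344). In hepatocytes *Bsg* (log2 0.33 ± 0.13, adjusted p = 0.0316) and *Slc16a13* (log2 0.70 ± 0.24, adjusted p = 0.0258) were higher with butyrate. Neither held in every fit that left out a single library: *Bsg* did not pass without the first or the third βOHB replicate (adjusted p = 0.0978 and 0.172) or the first or second butyrate replicate (0.082 and 0.0709), and *Slc16a13* did not pass without the first or the third βOHB replicate (0.0626 and 0.0934) or the third butyrate replicate (0.0564), nor without a filter (0.0664). In macrophages *Slc16a13* was not called (log2 0.28, adjusted p = 0.0779) but passed with limma-voom (0.0321), on the macrophage libraries alone (0.0169) and on library totals (0.0017). Intervals for *Bsg* were −0.17 to 0.37 in adipocytes, −0.31 to 0.24 in macrophages and −0.13 to 0.41 in myotubes, where the difference passed on library totals (adjusted p = 0.0242) and on the myotube libraries alone (0.0439).

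The other *Slc16* genes were mostly scarce. Of the 7 described here, 5 passed the filter, and of these 3 were called with butyrate in adipocytes and hepatocytes (2 higher and 1 lower in each) and 2 in macrophages and myotubes (both higher), where 61.0%, 65.0%, 66.5% and 63.5% of all tested genes were called in adipocytes, macrophages, myotubes and hepatocytes. *Slc16a9*, a carnitine efflux carrier, rose in adipocytes from 4.11 to 11.0 CPM (log2 1.42 ± 0.22, adjusted p = 1.88e-06), where *Slc16a12*, a creatine carrier, fell from 0.514 to 0.132 CPM (adjusted p = 0.000284). *Slc16a12* also fell in hepatocytes, from 40.7 to 19.1 CPM (log2 −1.09 ± 0.11, adjusted p = 2.82e-10), while *Slc16a5* rose there from 0.836 to 3.42 CPM (adjusted p = 3.21e-06). In macrophages *Slc16a9* was at 1.09 CPM with butyrate against 0.423 in control (adjusted p = 0.00258). The list median of log2 fold changes was −0.07 in adipocytes, 0.62 in macrophages, 0.65 in myotubes and −0.44 in hepatocytes, beside 0.00, 0.00, 0.00 and −0.01 over all tested genes. With βOHB 0 of the 5 were called in any cell type. Among all tested genes βOHB gave calls for 0.00652% in adipocytes, 0% in macrophages, 2.91% in myotubes and 0.00652% in hepatocytes.

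Carriers that hand aromatic amino acids across the membrane beside Mct10 moved unevenly with butyrate. Of the 4 described here, *Slc16a10* included, 2 rose and 1 fell in adipocytes, 2 rose and 2 fell in macrophages, 2 rose and 1 fell in myotubes, and 3 rose and 1 fell in hepatocytes, against 61.0%, 65.0%, 66.5% and 63.5% of all tested genes called in those cells. The medians were 0.26, −0.21, 0.27 and 0.85 in that order. *Slc3a2*, the heavy chain of the large neutral amino acid exchangers, fell in hepatocytes from 272 to 86.5 CPM (log2 −1.65 ± 0.07, adjusted p = 1.84e-18) and in macrophages from 265 to 148 CPM (adjusted p = 5.29e-12). Its light chain *Slc7a5* rose in adipocytes from 61.4 to 115 CPM (adjusted p = 1.24e-09), and *Slc7a8*, another light chain, fell in myotubes from 26.7 to 14.7 CPM (adjusted p = 1.69e-11) and rose in hepatocytes from 0.513 to 2.52 CPM (adjusted p = 1.06e-10). With βOHB, *Slc7a8* in myotubes was the only gene of this list that was called in any cell type, at 21.6 CPM (log2 −0.31 ± 0.07, adjusted p = 0.0108). The shares of all tested genes called with βOHB were 0.00652%, 0%, 2.91% and 0.00652% in adipocytes, macrophages, myotubes and hepatocytes. The fit on the myotube libraries alone called 0 of 15299 genes, so this call was lost there. Macrophage markers were lower in the same libraries, as given above, and their part was not tested.

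Among the relatives and partners of basigin (6 genes, all tested), 4 were called with butyrate in adipocytes, macrophages and myotubes, and 6 in hepatocytes, while 61.0%, 65.0%, 66.5% and 63.5% of all tested genes were called in adipocytes, macrophages, myotubes and hepatocytes. *Nptn*, which encodes the related glycoprotein neuroplastin, rose in adipocytes from 222 to 317 CPM (adjusted p = 1.04e-09), in macrophages from 429 to 550 CPM (adjusted p = 7.19e-07) and in myotubes from 261 to 336 CPM (adjusted p = 6.38e-07). *Cd44*, a hyaluronan receptor, fell in hepatocytes from 71.98 to 30.2 CPM (adjusted p = 1.53e-08). The list medians were −0.12, −0.20, 0.11 and −0.48 in adipocytes, macrophages, myotubes and hepatocytes.

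The 13 enzymes and regulators of lactate and pyruvate use had 4 higher and 2 lower with butyrate in adipocytes, 7 and 3 in macrophages, 6 and 2 in myotubes, and 6 and 2 in hepatocytes, where 61.0%, 65.0%, 66.5% and 63.5% of all tested genes were called in adipocytes, macrophages, myotubes and hepatocytes. *Pdp1*, a phosphatase that activates pyruvate dehydrogenase, rose in adipocytes from 12.4 to 29.6 CPM (log2 1.26 ± 0.08, adjusted p = 7.57e-14) and in myotubes from 77.2 to 135 CPM (adjusted p = 3.62e-11). *Pdk3*, a kinase that inactivates the same complex, rose in adipocytes from 18.6 to 27.7 CPM (adjusted p = 5.07e-06). *Ldhb*, a lactate dehydrogenase subunit, rose in hepatocytes from 0.563 to 3.45 CPM (adjusted p = 3.85e-08), and *Ldhd*, which acts on D-lactate, rose in macrophages from 0.524 to 2.23 CPM (adjusted p = 3.54e-10). *Pdp2* fell in macrophages from 27.1 to 17.8 CPM (adjusted p = 1.23e-06) and rose in myotubes from 9.61 to 18.3 CPM (adjusted p = 2.91e-09), and *Pdha1*, the catalytic subunit of pyruvate dehydrogenase, fell in hepatocytes from 154 to 101 CPM (adjusted p = 8.24e-08). The list medians were 0.02, 0.28, 0.21 and 0.17 in that order of cell types.

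RNA of *Mpc1* and *Mpc2*, the genes for the entry of pyruvate into mitochondria, changed little. With butyrate *Mpc2* fell in adipocytes from 95.5 to 84.6 CPM (adjusted p = 0.0468) and *Mpc1* rose in hepatocytes from 180 to 219 CPM (adjusted p = 0.0013). Neither was called in macrophages or myotubes, and pyruvate entry itself was not measured. *Slc5a8* and *Slc5a12*, the sodium-coupled carriers of the same substrates, did not pass the filter. Of 7 genes known to regulate monocarboxylate transporters, butyrate changed 7 in adipocytes (4 higher, 3 lower), 5 in macrophages (3 and 2), 6 in myotubes (5 and 1) and 6 in hepatocytes (4 and 2), against the same shares of all tested genes (61.0%, 65.0%, 66.5% and 63.5%). *Ppargc1a*, a coactivator that raises *Slc16a1* in muscle, rose in myotubes from 21.6 to 60.9 CPM (adjusted p = 7.96e-12) and in hepatocytes from 4.62 to 34.8 CPM (adjusted p = 2.66e-16). *Epas1*, a hypoxia-inducible factor, rose in myotubes from 3.32 to 24.0 CPM (log2 2.85 ± 0.12, adjusted p = 1.83e-18). *Myc* fell in hepatocytes from 129 to 39.2 CPM (adjusted p = 5.59e-16) and in macrophages from 22.5 to 10.7 CPM (adjusted p = 7.13e-10), and *Pparg* fell in adipocytes from 263 to 136 CPM (adjusted p = 2.36e-13). With βOHB 0 genes of these 4 lists were called in any cell type. Of all tested genes 0.00652%, 0%, 2.91% and 0.00652% were called with βOHB in adipocytes, macrophages, myotubes and hepatocytes.

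**Figure D5:**
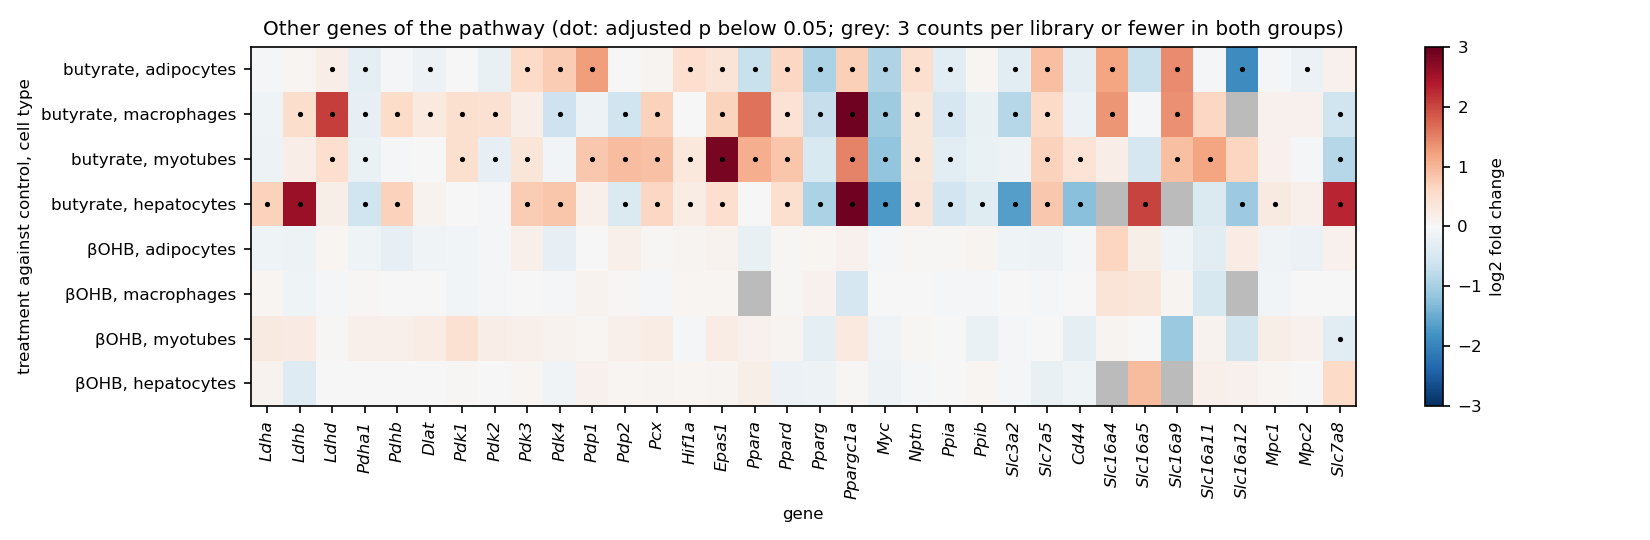
Log2 fold change against control (colour) of 34 other genes of the pathway with butyrate and βOHB in each cell type; dots mark an adjusted p below 0.05, and grey cells hold 3 counts per library or fewer in both groups. The butyrate rows hold 21 to 24 dots each, and the βOHB rows hold 1, for *Slc7a8* in myotubes. Of all tested genes 61.0% to 66.5% were called with butyrate and 0% to 2.91% with βOHB.

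Over the 12 group means of log2 CPM, the genes whose pattern was most like that of *Slc16a1* were *Slc25a42* (Pearson's r = 0.985), *Itih5* (0.981) and *Enpp5* (0.977). For *Bsg* they were *Pla1a* (0.991), *Cpt2* (0.991) and *Gpat3* (0.989), and for *Emb* *Olfml3* (0.997), *Oxct1* (0.992) and *Postn* (0.992). *Oxct1* encodes the enzyme that commits ketone bodies to use outside the liver. *Slc16a7* was most like *Shtn1* (0.991), *Akr1c13* (0.983) and *Mospd2* (0.983), *Slc16a6* like *Sharpin* (0.978), *Alcam* (0.976) and *Gsap* (0.974), and *Slc16a3* like *Hsd17b14* (0.979), *Praf2* (0.972) and *Pamr1* (0.966). *Slc16a10* was most like *Rab8a* (0.988), *Iqce* (0.988) and *Slc46a3* (0.987), and *Slc16a13* like *Slc38a1* (0.985), *Nfatc2* (0.982) and *Ttc13* (0.978). The 12 points come from 4 cell types and are not independent, and the genes named changed with the measure of likeness.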

How the data were processed

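RNA from 36 cultures was sequenced as paired ends. The authors estimated expected counts per transcript with Salmon 1.2.1 (per the submitters' processing notes) against the mouse GENCODE M25 transcripts and summed them per gene. The deposited values are these estimated counts, many of which are not whole. The study's methods name a scaling by transcript length and library size. Totals ranged from 18366289 to 23221473 with a median of 22177562.

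Here counts were rounded to whole numbers, genes were kept with over 1 CPM in at least 6 libraries (15340 of 54347), and library sizes were scaled by TMM. edgeR 4.0.16 (R 4.3.3) was run with its quasi-likelihood test over all 36 libraries with 1 mean per group, after a test on simulated data, and p-values were adjusted by Benjamini-Hochberg over all genes tested. Groups came from the sample labels. Log2 fold changes are from that fit, with SEs or 95% intervals from it. Alternatives were limma-voom (limma 3.58.1, the tool the authors used), DESeq2 1.42.0, other scalings and filters, fits on fewer libraries, the replicate number as a block and leaving out each library. Gene symbols came from GENCODE M21, which named 54094 of the 54347 genes.

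The members and lists were chosen with earlier results of these data known. Beside the members, values were given for at most 2 called genes of smallest p per list and comparison, and for the 3 genes of highest Pearson's r with each member. Lists are described by counts and medians, without a test of the list. A gene of the lists is not reported here, and the counts and medians of its lists leave it out.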

Additional observations from a re-analysis of the deposited data

Results flagged for a closer look

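The change with butyrate differed between the 4 cell types for 6 of the 8 genes, by edgeR's joint test with Benjamini-Hochberg adjustment over all genes tested, against 74.5% of those genes. The adjusted p was 3.04e-09 for *Slc16a7*, which fell by 0.999 in macrophages and rose by 1.14 in hepatocytes on the log2 scale. It was 4.46e-07 for *Slc16a10*, whose log2 fold changes ran from 0.17 in macrophages to 0.89 in hepatocytes, and 0.00015 for *Slc16a6*, which ran from −0.77 in hepatocytes to 0.25 in adipocytes. It was 0.00139 for *Slc16a1* (0.52 in hepatocytes to 1.17 in macrophages), 0.00294 for *Slc16a3* (−0.36 in hepatocytes to 0.70 in myotubes) and 0.0226 for *Slc16a13* (−0.23 in myotubes to 0.65 in adipocytes), a result lost with limma-voom (0.0556), with DESeq2 (0.0518), without a filter (0.0936) and on leaving out any of 4 single libraries (0.051 to 0.074). Isolation and culture differed with cell type and cannot be told apart from it, nor can the medium, other than between adipocytes and macrophages, or the substrain of the hepatocytes. The site where the cells were obtained may have differed as well.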

How the results depend on the processing

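No alternative turned the direction of a called difference of the 8 genes. Results of the other named genes were not compared between the alternatives. The count of the 8 genes called was within 1.5 times the value reported in 319 of 334 recomputed counts. The exceptions follow. With βOHB in myotubes 2 genes were called by edgeR, against 1 with limma-voom, 1 with replicate as a block and 0 on the myotube libraries alone, a fit that called 0 of all genes against 446. Leaving out 1 library gave 0 to 3, with 0 without the first control, first βOHB or second βOHB replicate. For butyrate against βOHB in adipocytes 3 were reported, and single libraries moved this to between 1 (second βOHB replicate absent) and 4. In macrophages 5 were reported, and the same fits called 3 (first βOHB replicate absent) or 4. A βOHB effect that differed between cell types was called for 0 genes, against 1 with limma-voom, 1 with DESeq2, 2 without a filter on low counts, and 0 to 1 on leaving out 1 library (1 without the third myotube control or the first hepatocyte control). Over all genes, that last test called 150, against 87 with limma-voom, 342 with DESeq2, 787 without a filter and 75 with the block, and βOHB in myotubes called 895 without a filter. Without a filter, βOHB called 192 genes in adipocytes, 35 in macrophages and 48 in hepatocytes, against 1, 0 and 1, and none of the 8 genes in those cells. The causes were not tested.

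Same-numbered libraries of a cell type had deviations from their group means correlated by −0.264 to 0.273. With 3 libraries per group this cannot show whether same-numbered libraries shared a preparation. Scaling by library totals alone moved the median of all genes with butyrate by 0.20 in macrophages and 0.13 in myotubes, and against control hepatocytes by 0.24 to 0.25. Among single values, 59 fell short of the threshold, 50 passed it and 107 moved without a test, of 2944. The 3 genes most like each member changed for 8 of the 8 members with Spearman's rho and for 6 with Pearson's r over the 36 libraries. *Slc16a7* in adipocytes and myotubes, *Slc16a13* in adipocytes and hepatocytes, and *Emb* in hepatocytes were at about 3 CPM or less, where counting limits what 3 libraries can show.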
